A study of Mus musculus with 8 samples.

Results

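The factors described here are the 7 transcription factor genes of 2 unrelated families that share the TCF name, and they were found by their gene symbols. The E-proteins are *Tcf3*, *Tcf4* and *Tcf12*, and the HMG-box TCF/LEF factors are *Tcf7*, *Tcf7l1*, *Tcf7l2* and *Lef1*. All 7 had values among the 15039 genes of the deposited table. They were measured by RNA sequencing of prefrontal cortex (PFC) in 4 libraries of Rnf146-overexpressing mice and 4 libraries of eGFP-overexpressing mice, numbered 1 to 4 in each group. All were wild-type male C57BL/6NCrljOri mice that received an adeno-associated virus in the PFC of both hemispheres at an age of 6 weeks, and the tissue was taken 4 weeks later. The virus of the Rnf146 group carried mouse Rnf146 together with eGFP, the virus of the control group carried eGFP, and in both groups expression was driven by the human synapsin promoter, which is active in neurons, whereas the RNA came from all cells of the dissected tissue. The Rnf146 mice had been chosen for sequencing as animals with overexpression and impaired social behavior.

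The families act in different ways. HMG-box TCF/LEF factors are the DNA-bound partners of β-catenin: without it they hold target genes silent together with Groucho (TLE) corepressors, and with it they activate them, so they are the last step of canonical Wnt signaling. The class I basic helix-loop-helix E-proteins bind E-box sequences as dimers with tissue-specific partners such as the NeuroD proteins, and Id proteins block them by forming dimers that cannot bind DNA. Rnf146 is a ubiquitin ligase that marks poly-ADP-ribosylated Axin for degradation, upstream of β-catenin and hence of the HMG-box factors. The names overlap: the protein of *Tcf7l2* has long been called TCF4 in work on Wnt signaling, and the protein of *Tcf7l1* has been called TCF3, while the gene symbols *Tcf4* and *Tcf3* belong to E-proteins. Values are given here by gene symbol.

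Matches to the core sequence that TCF/LEF factors read are shown for 3 target genes whose values are given later. Target genes are where the activity of the HMG-box factors would be read. The 3 are among the 4 of 17 measured targets that hold a match, and binding was not measured. The 250 bases before the annotated start of each gene (GRCm39, start of the GENCODE canonical transcript) are given on the strand of the gene, 5′ to 3′. The core searched was CTTTG followed by a pair of A or T bases, on either strand. Capitals mark it, and in Notum they also mark 1 E-box (CAGCTG or CAGGTG on either strand).
Axin2 (chr11:108811388-108811637, plus strand): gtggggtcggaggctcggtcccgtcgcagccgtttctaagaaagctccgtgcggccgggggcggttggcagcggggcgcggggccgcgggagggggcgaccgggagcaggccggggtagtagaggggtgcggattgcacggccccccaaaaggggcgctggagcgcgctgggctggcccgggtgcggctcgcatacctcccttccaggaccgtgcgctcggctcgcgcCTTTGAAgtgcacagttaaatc
Nkd1 (chr8:89247675-89247924, plus strand): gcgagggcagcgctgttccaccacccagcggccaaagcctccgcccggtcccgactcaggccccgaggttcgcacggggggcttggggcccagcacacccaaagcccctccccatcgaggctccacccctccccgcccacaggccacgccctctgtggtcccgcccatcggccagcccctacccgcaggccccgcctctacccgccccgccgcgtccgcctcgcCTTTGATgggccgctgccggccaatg
Notum (chr11:120552020-120552269, minus strand): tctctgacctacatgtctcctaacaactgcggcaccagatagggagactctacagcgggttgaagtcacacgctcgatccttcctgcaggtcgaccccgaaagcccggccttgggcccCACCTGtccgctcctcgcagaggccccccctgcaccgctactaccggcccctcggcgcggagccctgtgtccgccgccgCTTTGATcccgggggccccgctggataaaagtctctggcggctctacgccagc
The TCF/LEF core lay 22 to 16 bases before the start in *Axin2*, 26 to 20 bases in *Nkd1* and 53 to 47 bases in *Notum*. Among the promoters of 13197 protein-coding genes in the table, 11.6% held such a core in the same window and 26.1% held an E-box, so a match is common and describes letters only. Of the 7 factors, *Tcf7l1* held a TCF/LEF core and *Tcf4* held an E-box.

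The deposited values are on a log2 scale that compresses weakly expressed genes, and the mean of eGFP library 1 and Rnf146 library 1 equals that of each other numbered pair for every gene. What remains for a gene is its overall mean and the Rnf146 minus eGFP difference in each of 4 pairs. These differences were tested with limma, with a block for the pair, and a gene was called where the p adjusted over all 15039 genes did not exceed 0.1. As a check of the labels, *Rnf146* was between 10.35 and 10.50 in the eGFP libraries and between 13.01 and 13.17 in the Rnf146 libraries. Reads of the vector and of the mouse gene are counted together. The cortical excitatory neuron marker *Slc17a7*, a vesicular glutamate transporter gene, was among the most highly expressed genes of the table, with a mean value of 14.78 (percentile 99.7). The total reads per library are unknown, and the labels do not say what libraries of a pair had in common, or that each library came from a separate mouse.

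The E-proteins were far more abundant in this tissue than the HMG-box factors. Levels were compared per transcript length. Each deposited value was turned into an approximate normalized count with a variance-stabilizing curve, whose scale was set by mean counts that the study lists for other genes, and divided by the length of the canonical transcript in kilobases. *Tcf4* had the highest level, at 837 ± 23.0 counts per kb in the eGFP libraries and 756 ± 20.8 in the Rnf146 libraries (SD, n = 4 libraries each). The centring removed the variation between pairs, so these SDs and ranges understate the spread between libraries. *Tcf12* followed with 204 ± 7.41 and 220 ± 7.79, and *Tcf3* with 140 ± 10.5 and 137 ± 10.6. Averaged over all 8 libraries, the level of *Tcf4* was 3.75 times that of *Tcf12* and 5.73 times that of *Tcf3*. The ratio to *Tcf3* depended on the choice of transcript. With the longest annotated transcript, *Tcf4* was at 790 counts per kb, *Tcf12* at 198 and *Tcf3* at 95.1. The ranges of these 3 genes over the 8 libraries did not overlap.

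The 4 HMG-box factors were all near the bottom of the table, at percentiles 12.5 to 16.7 of the mean deposited value, where *Tcf4* was at percentile 96.5. Per kilobase, *Lef1* had 38.1 ± 1.34 counts in the eGFP libraries and 34.6 ± 1.26 in the Rnf146 libraries. *Tcf7l1* had 25.3 ± 1.5 and 28.5 ± 1.59, *Tcf7l2* 23.3 ± 2.77 and 27.8 ± 3.02, and *Tcf7* 21.0 ± 2.53 and 24.8 ± 2.72. The last 3 overlapped in their ranges, so their order cannot be told from these libraries. The place of *Lef1* above them rested on the choice of transcript: with the longest annotated transcript the 4 genes lay between 21.7 for *Tcf7* and 26.6 for *Tcf7l1*, with *Lef1* and *Tcf7l2* both at 25.1. The mean level of *Tcf4* was 31.1 times that of *Tcf7l2*, the gene whose protein shares the name TCF4. *Tcf7l2* is best known in the adult brain from thalamic neurons and newly formed oligodendrocytes, and *Lef1* from thalamic neurons and endothelial cells.

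**Figure D1:**
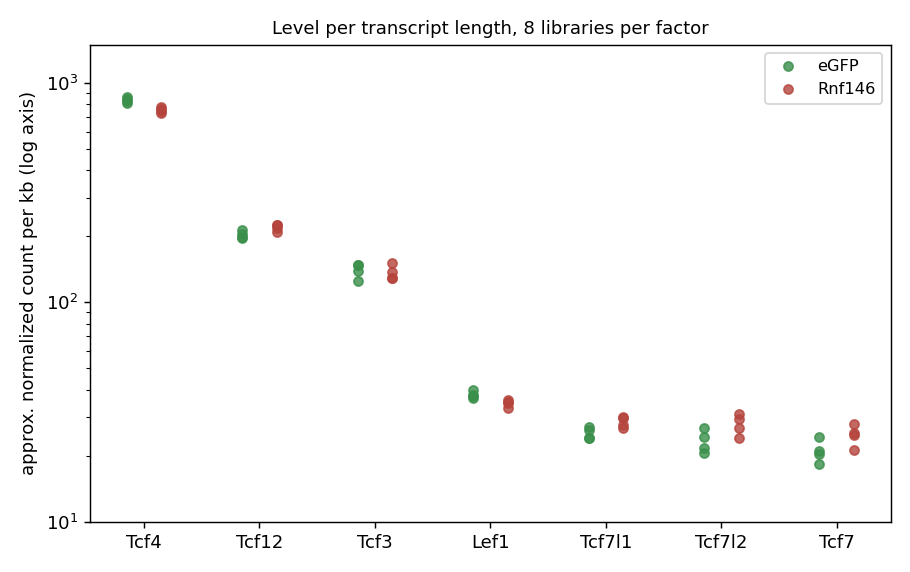
Approximate normalized count per kilobase of canonical transcript (log axis) for the 7 factors, ordered by their mean level, with 1 point per library (green for eGFP, red for Rnf146, 4 each). *Tcf4* lies above all others, at 731 to 865, and the 4 HMG-box factors lie between 18.3 and 40.0.

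None of the 7 factors was called. With limma and the replicate block, 1.25% of all genes were called (188 genes, 0.818% higher and 0.432% lower), against 0 of the 7 factors. At an unadjusted p under 0.05, 1 of the 7 passed (*Tcf4*), against 12.4% of all genes (6.45% higher, 5.98% lower). Without the block, 2 of the 7 were called, against 21.5% of all genes (11% higher, 10.4% lower). The groups did not overlap for *Tcf4* and *Lef1*, both lower in all 4 pairs, that is for 2 of 7 factors against 20.6% of all genes (10.4% higher, 10.2% lower). The median difference of the 7 factors was 0.05 on the deposited log2 scale, and that of all genes was 0.00086. In bulk tissue, fewer cells that express a gene and less RNA per cell cannot be told apart.

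**Figure D2:**
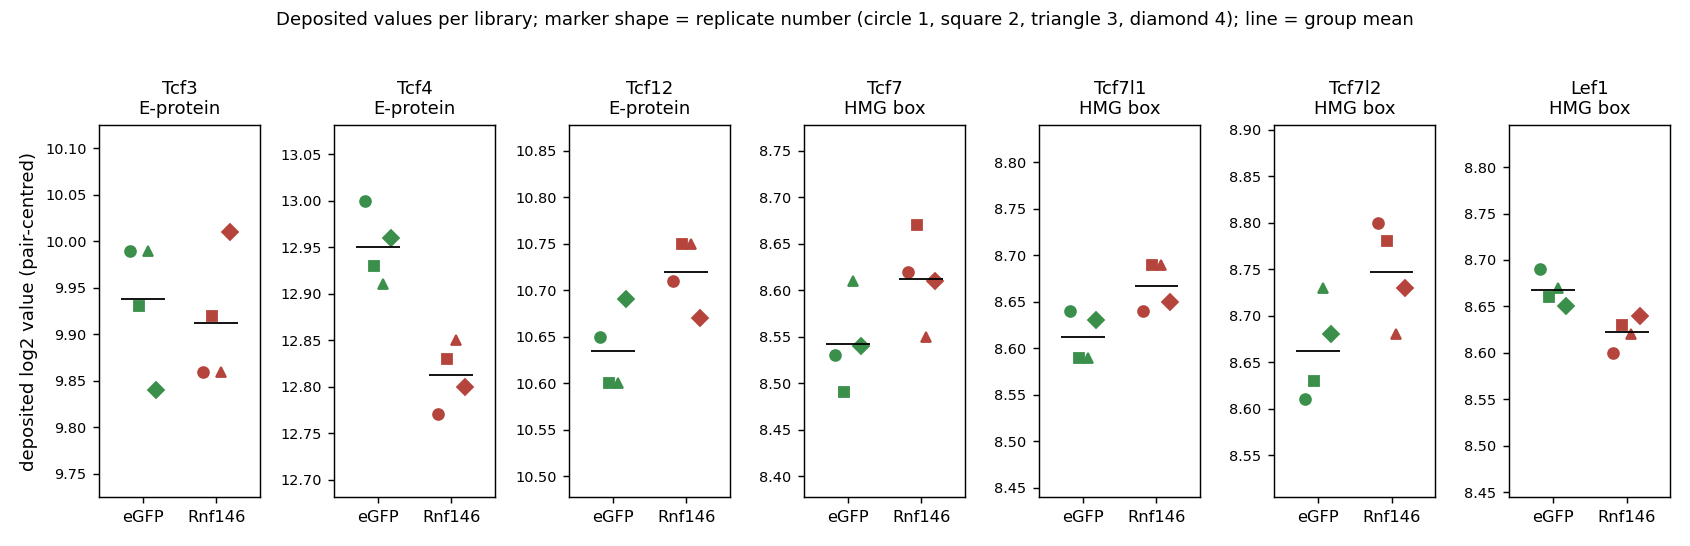
Deposited pair-centred log2 values of each factor in the 8 libraries; each panel spans the same height, marker shapes give the replicate number and lines give group means. *Tcf4* and *Lef1* have no overlap between the groups, and in the other 5 factors the groups overlap.

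*Tcf4* (chromosome 18 of GRCm39, 69476427 to 69822150, plus strand), whose loss of one copy causes the neurodevelopmental Pitt-Hopkins syndrome in humans, had the largest difference of the E-proteins. Its deposited log2 value was 13, 12.93, 12.91 and 12.96 in eGFP libraries 1 to 4, and 12.77, 12.83, 12.85 and 12.80 in Rnf146 libraries 1 to 4. Every Rnf146 library was below every eGFP library, which after the centring says no more than that all 4 pair differences were below 0. Pairs 1 to 4 differed by -0.23, -0.11, -0.05 and -0.16, and the 95% interval of the mean ran from -0.25 to -0.03. The mean of -0.14 ± 0.08 (SD over 4 pairs) did not pass the threshold: the adjusted p from limma was 0.284, and it was 0.0166 if the block was left out. At the level of *Tcf4* the scale is close to log2 counts, and the difference was -0.15 after back-transformation to log2 normalized counts.

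*Tcf12* (chromosome 9, 71749970 to 72019177, minus strand), an E-protein gene linked to craniosynostosis in humans, had values in the opposite direction. Its deposited log2 value was 10.65, 10.60, 10.60 and 10.69 in the eGFP libraries and 10.71, 10.75, 10.75 and 10.67 in the Rnf146 libraries. The groups overlapped only through pair 4, in which the Rnf146 library was the lower. The mean difference was 0.08 ± 0.08 (SD, n = 4 pairs), with a 95% interval from -0.03 to 0.20 and an adjusted p of 0.523 from limma with the block and of 0.0897 without it. *Gm38057*, a transcript model still to be experimentally checked that lies within *Tcf12* on the same strand, was the only gene overlapping any of the 7 factors that had values in the table, and its difference was 0.08 with an adjusted p of 0.504.

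*Tcf3* (chromosome 10, 80244046 to 80269594, minus strand), the E-protein gene best known from B lymphocyte development, had 9.99, 9.93, 9.99 and 9.84 in the eGFP libraries and 9.86, 9.92, 9.86 and 10.01 in the Rnf146 libraries. It was lower in 3 pairs and higher in pair 4, by 0.17. Its mean difference was -0.02 ± 0.14 (SD over 4 pairs; adjusted p of 0.916 from limma), and the sign turned to 0.01 without pair 1 or pair 3. Averaged over the 3 E-proteins, the difference was -0.10, 0.01, -0.01 and 0.00 in the 4 pairs.

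*Tcf7l2* (chromosome 19, 55730188 to 55922091, plus strand) had the largest difference of the HMG-box factors. Its deposited log2 value was 8.61, 8.63, 8.73 and 8.68 in the eGFP libraries and 8.80, 8.78, 8.68 and 8.73 in the Rnf146 libraries. It was higher in Rnf146 libraries 1, 2 and 4 than in their partners and lower in library 3, and the groups overlapped. The mean difference of 0.09 ± 0.11 (SD, n = 4 pairs) did not exceed its own SD and had a 95% interval from -0.03 to 0.21, with an adjusted p of 0.547 from limma with the block and of 0.149 without it. At this low level, a doubling of the count moves the deposited value by about 0.335 only. After back-transformation to log2 normalized counts, the mean difference of *Tcf7l2* was 0.26 ± 0.33.

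*Tcf7* (chromosome 11, 52143107 to 52174619, minus strand), a target of β-catenin signaling itself and best known from T lymphocytes, also had its lowest difference in pair 3. Its deposited log2 value was 8.53, 8.49, 8.61 and 8.54 in the eGFP libraries and 8.62, 8.67, 8.55 and 8.61 in the Rnf146 libraries. As in *Tcf7l2*, pair 3 was the only pair in which the Rnf146 library was the lower. The mean difference was 0.07 ± 0.10 (SD, n = 4 pairs; adjusted p of 0.613 from limma), or 0.24 ± 0.33 in log2 normalized counts.

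*Tcf7l1* (chromosome 6, 72603354 to 72766589, minus strand), the family member that acts mostly as a repressor, had 8.64, 8.59, 8.59 and 8.63 in the eGFP libraries and 8.64, 8.69, 8.69 and 8.65 in the Rnf146 libraries. Its values were equal in pair 1 at this precision and higher in the other 3 Rnf146 libraries. The mean difference was 0.05 ± 0.05 (SD, n = 4 pairs; adjusted p of 0.674 from limma), or 0.17 ± 0.17 in log2 normalized counts.

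*Lef1* (chromosome 3, 130903919 to 131018005, plus strand), like *Tcf7* a target of the pathway it serves, was the only HMG-box factor with a negative mean difference. Its deposited log2 value was 8.69, 8.66, 8.67 and 8.65 in the eGFP libraries and 8.60, 8.63, 8.62 and 8.64 in the Rnf146 libraries. The groups did not overlap, but the nearest libraries were 0.01 apart. The mean difference was -0.04 ± 0.03 (SD, n = 4 pairs; adjusted p of 0.731 from limma with the block and 0.166 without it), or -0.14 ± 0.10 in log2 normalized counts. Pairs 1 to 4 gave 0.05, 0.10, -0.01 and 0.03 on average over the 4 HMG-box factors, and the mean of these was 0.042 ± 0.046 (SD).

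**Figure D3:**
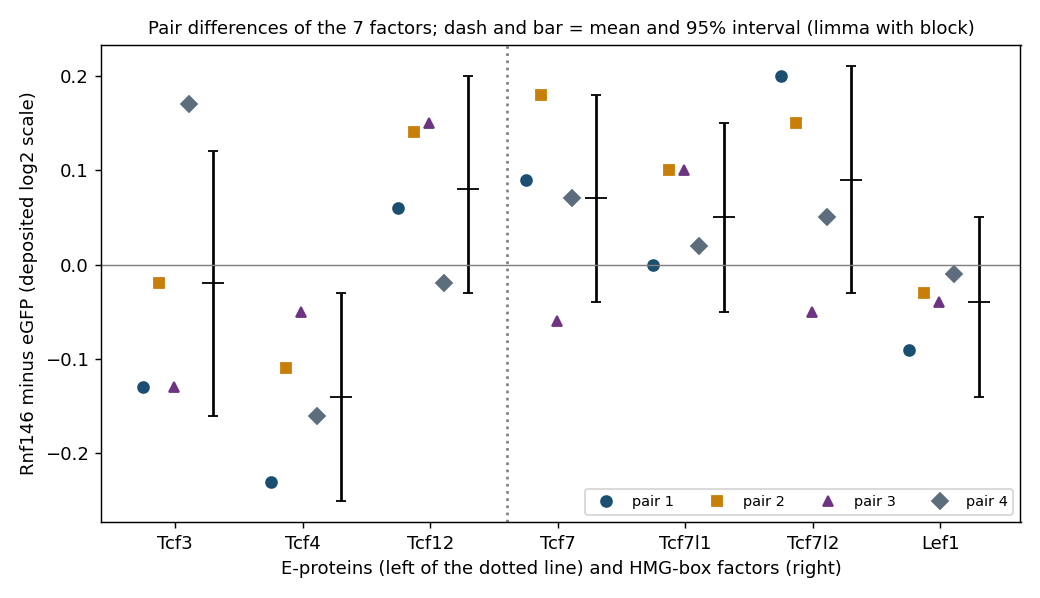
Rnf146 minus eGFP of each factor in the 4 pairs (symbols) with the mean and its 95% interval from limma with the block (dash and bar), on the deposited log2 scale. The interval of *Tcf4* lies below 0, at -0.25 to -0.03, before adjustment for 15039 genes, and the other 6 intervals include 0.

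Of 92 genes listed as acting with these factors, 65 had values, and 2 of them (3.08%) were called against 1.25% of all genes: *Neurod2* was lower and *Id4* was higher, and both belong to the E-protein side. Without the block, 18 of the 65 (27.7%) were called, against 21.5% of all genes. At an unadjusted p under 0.05, 15 of the 65 (23.1%) passed with the block, against 12.4% of all genes. The 65 genes come from lists chosen with earlier results of these data known, so these shares are a description only. The count of 2 rested on the pairs, being 7 without pair 1, 1 without pair 3 and 0 without pair 2 or pair 4.

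The partners of the HMG-box factors did not pass the test. Of 14 coactivators, 0 were called with limma and the block, 2 had an unadjusted p under 0.05, and 3 were called without the block. For this and the other lists of partners, the shares over all genes were 1.25%, 12.4% and 21.5%. *Ctnnb1*, the gene of β-catenin, differed by 0.25, -0.09, -0.10 and 0.12 in pairs 1 to 4. Its mean difference was 0.04 ± 0.17 (SD), with a 95% interval from -0.11 to 0.20. The extremes of the list were *Tbl1x*, an exchange factor of corepressors and coactivators, at 0.11 ± 0.03 with an adjusted p of 0.335 from limma, and *Pygo2*, which ties β-catenin to chromatin, at -0.16 ± 0.10 with an adjusted p of 0.266. Both had the same direction in all 4 pairs. The median of the 14 genes was 0.024.

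Of 18 corepressors and inhibitors, 0 were called with the block, 2 had an unadjusted p under 0.05 and 3 were called without the block. The highest was *Hipk2*, a kinase that phosphorylates TCF/LEF factors, at 0.20 ± 0.22 (SD, n = 4 pairs), about as large as its spread. Its adjusted p from limma was 0.345. Without pair 1 the difference was 0.30 with an adjusted p of 0.0518. The adjusted p was 0.728 without pair 2, 0.542 without pair 3 and 0.597 without pair 4. The lowest was the Groucho gene *Tle3* at -0.12 ± 0.14 (adjusted p of 0.477). The median was -0.014.

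Target genes of β-catenin and TCF/LEF factors, 17 of 23 with values, likewise had 0 calls with limma and the block, 4 at an unadjusted p under 0.05 and 5 without the block (2 higher, 3 lower). *Axin2*, the most widely used readout of the pathway, differed by 0.10, 0.01, -0.01 and -0.12 in the 4 pairs, so that its 95% interval ran from -0.12 to 0.11. *Nkd1*, a feedback inhibitor, had a mean difference of 0.03 ± 0.07, and *Notum*, a secreted Wnt deacylase, of -0.09 ± 0.29 (SD, n = 4 pairs). All 3 genes are among the 4 of 17 targets that hold a TCF/LEF core in the window searched. That they hold it is therefore not a result. In each of the 3 the difference was smaller than the spread between pairs. The stem cell receptor gene *Lgr5* was at -0.12 ± 0.19 and its relative *Lgr6* at 0.13 ± 0.27. The extremes were *Sp8*, at 0.24 ± 0.15 with an adjusted p of 0.167 from limma, and *Jun*, also an activity-induced gene, at -0.17 ± 0.12 with an adjusted p of 0.280. *Sp8* also marks a class of interneurons. The median of the 17 genes was -0.011, and *Sp5*, *Dkk1*, *Dkk4*, *Wif1*, *Fosl1* and *Ascl2* were not analysed here. Several targets were as weakly expressed as the HMG-box factors, where the scale compresses differences. By mean value, *Lgr5* was at percentile 6.8, *Notum* at 10.2 and *Lgr6* at 12.8, while *Axin2* was at 59.2. After back-transformation to log2 normalized counts, *Lgr5* was at -0.48 and *Sp8* at 0.57. Small deposited differences of such genes therefore do not show unchanged counts.

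On the E-protein side, 9 of 30 class II bHLH partners had values. *Neurod2*, a partner that drives the maturation of cortical excitatory neurons, fell in Rnf146-overexpressing mice. Pairs 1 to 4 gave -0.38, -0.44, -0.17 and -0.23. The mean was -0.30 ± 0.13 (SD over 4 pairs; adjusted p of 0.0688 from limma with the block), and the adjusted p was 0.287 without pair 2 and 0.245 without pair 4. Its relatives in the same neurons, *Neurod6* and *Bhlhe22*, had -0.22 ± 0.19 and -0.28 ± 0.24 with adjusted p-values of 0.265 and 0.219, and both were picked once their values were known. The highest of the list was *Olig2*, the partner that sets oligodendrocyte fate, at -0.17, 0.32, 0.36 and 0.34 in pairs 1 to 4. Its mean was 0.21 ± 0.26 (adjusted p of 0.379 from limma), and without pair 1 it was 0.34 with an adjusted p of 0.0305. The adjusted p of *Olig2* was 0.712 without pair 2, 0.605 without pair 3 and 0.663 without pair 4. In all, 1 of the 9 was called, lower, and the median was -0.073.

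Among 7 inhibitors of E-proteins, the 4 Id genes and the 3 corepressors of the ETO family, 1 was called. *Id4* rose, by 0.39, 0.51, 0.34 and 0.11 in pairs 1 to 4. The mean was 0.34 ± 0.16 (SD over 4 pairs; adjusted p of 0.0745 from limma with the block). The adjusted p was 0.300 without pair 2, 0.156 without pair 3 and 0.138 without pair 4. None of the other Id genes was called: *Id1* had -0.10 ± 0.03, *Id2* 0.06 ± 0.10 and *Id3* -0.09 ± 0.14, with adjusted p-values of 0.384, 0.706 and 0.615. *Cbfa2t3*, an ETO corepressor, was lower in all 4 pairs at -0.27 ± 0.14, with an adjusted p of 0.113 from limma. It fell to 0.0866 without pair 1, and rose to 0.369 without pair 2, 0.172 without pair 3 and 0.33 without pair 4. The median of the 7 genes was -0.088.

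**Figure D4:**
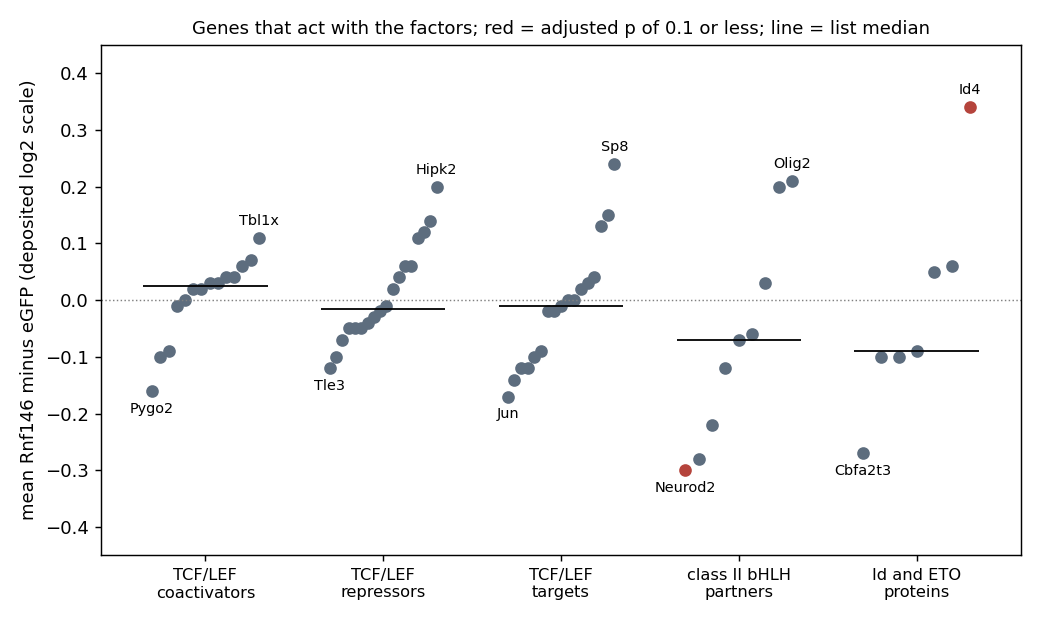
Mean Rnf146 minus eGFP of the 65 measured genes that act with the factors, in 5 lists, each sorted, on the deposited log2 scale; red points are called, lines are list medians and the extremes are named. The only red points are *Neurod2* at -0.30 and *Id4* at 0.34.

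Cell type markers moved in the same libraries. Their lists were chosen with earlier results of these data known. Beside the counts below, 0.818% of all genes were called higher and 0.432% lower. The 10 of 14 measured genes of septum and basal forebrain were all called higher, and their mean value was 9.12 to 9.35 in the eGFP libraries and 9.70 to 9.92 in the Rnf146 libraries; *Chat*, *Slc18a3*, *Lhx8* and *Gbx1* were not analysed here. Cortical excitatory neuron markers, 14 of 15, were at 11.81 to 11.87 in the eGFP libraries and at 11.70 to 11.75 in the Rnf146 libraries. Their mean difference of -0.15, -0.17, -0.06 and -0.16 was below 0 in all 4 pairs, as was that of *Tcf4*. The microglia list was also below 0 in all 4 pairs, at -0.18, -0.26, -0.10 and -0.16. The excitatory list was mixed, as 4 of its 14 genes had a mean difference above 0, with *Foxp1* at 0.18. Of the excitatory markers, 1 was called lower, *Slc17a7*, and *Rspo1* was not analysed here. *Neurod6* is 1 of these markers. Thalamic markers, 13 of 16, had 3 calls, all higher (*Prkcd*, *Zfhx3* and *Grid2ip*), and differed by 0.18, 0.21, 0.05 and 0.15 on average; *Gbx2*, *Pou4f1* and *Tnnt1* were not analysed here. Their range was 9.55 to 9.63 in the eGFP libraries and 9.68 to 9.76 in the Rnf146 libraries. The thalamic list was mixed: *Prkcd* at 0.75 and *Zfhx3* at 0.45 weighed most in its mean, its median was 0.11, and 9 of its 13 genes had a mean difference above 0, while *Rgs16* at -0.06 and *Rora* at -0.05 were below 0 in all 4 pairs.

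Newly formed oligodendrocytes, 14 of 14 markers with 0 calls, had a mean difference of 0.02, 0.10, 0.19 and 0.16. Mature oligodendrocytes, 15 of 15 with 0 calls, had -0.15, 0.42, 0.80 and 0.48. The mature list had the sign of *Olig2* in each pair, while the newly formed list did not in pair 1. The newly formed list was at 9.82 to 9.90 in the eGFP libraries and 9.93 to 10.01 in the Rnf146 libraries. The mature list was at 11.25 to 11.73 in the eGFP libraries and 11.58 to 12.05 in the Rnf146 libraries. Oligodendrocyte precursors, 10 of 10 with 0 calls, differed by 0.07 ± 0.04 (SD, n = 4 pairs), and endothelial and mural cells, 17 of 17 with 0 calls, by 0.00 ± 0.05. At an unadjusted p under 0.05, these 4 lists had 6 of 14, 13 of 15, 2 of 10 and 0 of 17 genes, against 12.4% of all genes. Striatal markers, 13 of 13 with 2 calls, differed by 0.51 ± 0.51, ependymal markers, 8 of 12 with 2 calls, by 0.17 ± 0.03 (*Ccdc153*, *Tmem212*, *Dynlrb2* and *Ak7* were not analysed here), and interneuron markers, 13 of 13 with 4 calls, by 0.12 ± 0.06, all calls higher. The interneuron list was also mixed, with a median of -0.027 and 6 of 13 genes above 0: *Gad1*, *Gad2*, *Slc32a1* and *Dlx1* were the called genes, while *Vip* at -0.23, *Lhx6* at -0.11 and *Adarb2* at -0.11 were below 0 in all 4 pairs. Astrocytes, 12 of 12 with 1 call, higher, differed by 0.00 ± 0.06, and microglia, 10 of 10 with 1 call, lower, by -0.18 ± 0.07. The part of these cell types in the values of *Tcf4*, *Tcf7l2*, *Neurod2*, *Olig2* and *Id4* was not tested.

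**Figure D5:**
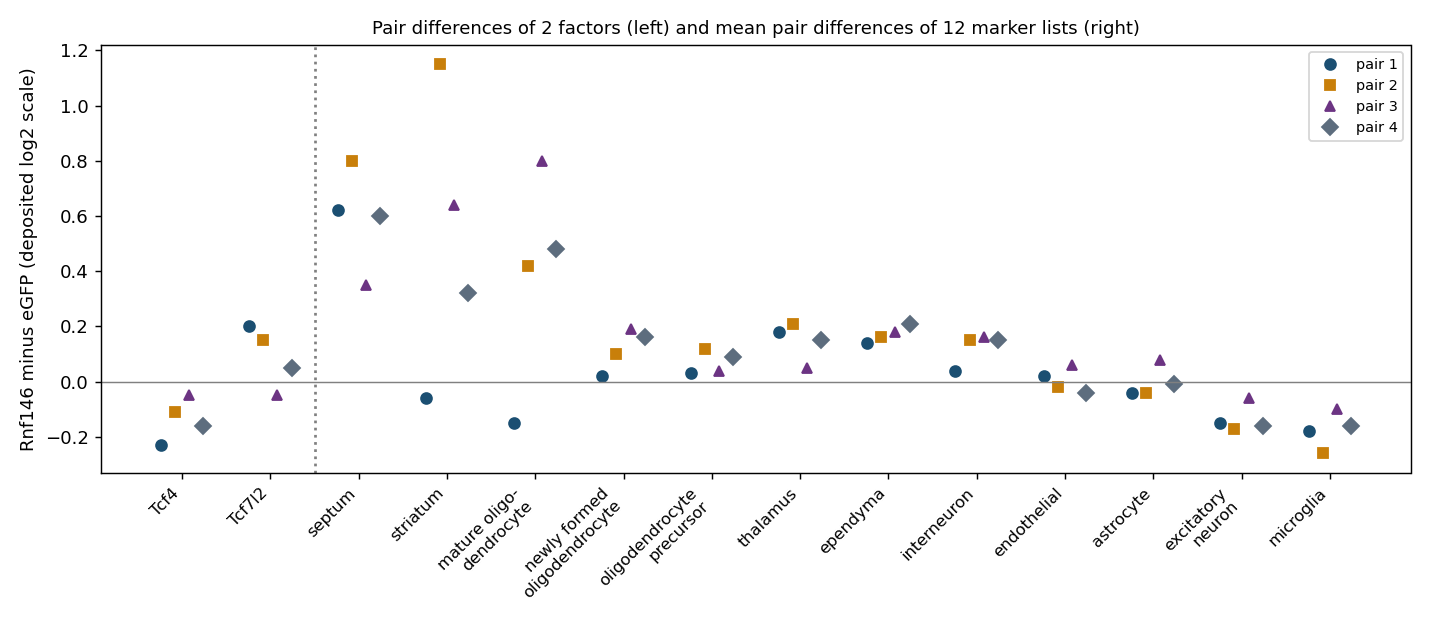
Pair differences of *Tcf4* and *Tcf7l2* (left of the dotted line) and mean pair differences of 12 marker lists (right), on the deposited log2 scale, with 1 symbol per pair. The septal list is above 0 in every pair, by 0.35 to 0.80, and the excitatory and microglia lists are below 0 in every pair, as is *Tcf4*.

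The genes whose pattern was most like that of *Tcf4* were sought by the cosine similarity of the 4 pair differences, among 10867 genes whose differences were 0.5 to 2 times as large. The 5 nearest were *Slc6a13*, a GABA transporter gene, *Kctd1*, *Lzts3*, *Plod3*, a collagen-modifying enzyme, and *Ttbk1*, a tau kinase, with similarities of 0.9986 to 0.9965. All were lower in all 4 pairs, which a similarity this high to *Tcf4* requires and which is therefore not a result. In all, 18 genes exceeded 0.99. For *Tcf7l2*, the nearest of 11871 genes were *Vmn1r55*, a vomeronasal receptor gene, *Slc25a39*, a mitochondrial carrier gene, *Sec61b*, a subunit of the protein translocon, *Ccdc30* and *Gm15337*, with similarities of 0.9981 to 0.9887. Over 4 pairs, such likeness is a description of these libraries only.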

How the data were processed

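RNA of 8 PFC libraries was examined, 4 per group, with groups and replicate numbers from the sample labels. Per the labels and the methods of the study, the authors used Cutadapt for trimming and Salmon 1.9.0 for transcript abundance, against GENCODE vM30 (GRCm39), and the submitters' notes also name DESeq2. The authors deposited log2 values of 15039 gene symbols, between 7.86 and 18.8, centred within same-numbered pairs: the pair sums of a gene differed by at most 1.4e-13. The numbers therefore pair the libraries by construction, and the block leaves 3 residual degrees of freedom where a fit without it would count 6. The transformation and the centring are not given in the sources used here. Library depth, and the precision that counting gives, are unknown, and no count test was run. Whether replicates are separate mice of separate batches is not stated, so p-values measure the spread between these pairs.

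The model (limma 3.58.1, R 4.3.3) had a pair and a group term, with a mean-dependent prior variance, p-values were adjusted over all genes by the Benjamini-Hochberg method, and the procedure was tested on simulated data. Approximate counts came from a variance-stabilizing curve, fitted to the mean counts that the study's supplement lists for 294 genes. No other use was made of that list. The median absolute residual was 0.0058 and the largest 0.539 on the deposited scale. For log2 normalized counts, an offset of 0.5 was added to the back-transformed count before the logarithm. Positions, lengths and promoters were read from the GRCm39 genome and the GENCODE vM39 annotation, with Python 3.11.15, pandas 2.3.3 and matplotlib 3.10.9. The TCF/LEF core was widened to its present form after a first search of the promoters.

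The factors and gene lists were chosen with earlier results of these data known. Genes named are the 7 factors, *Rnf146*, the called gene and both extremes of each list of partners, *Axin2*, *Lgr5* and *Lgr6*, the 5 nearest neighbours of the factor with the largest differences in each family, and genes needed to describe a marker list, such as *Slc17a7*, *Prkcd* or *Gad1*, which were picked with their values known. Genes outside this rule (*Ctnnb1*, *Nkd1*, *Notum*, *Neurod6*, *Bhlhe22*, the other Id genes, *Gm38057*) were chosen after their values were seen. Alternatives were no block, no trend, robust variances, median centring, quantile normalization, the upper 75% of genes by mean value, library weights, back-transformed counts, an adjusted p of 0.05 and each pair left out.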

Additional observations from a re-analysis of the deposited data

Results flagged for a closer look

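The mean of the 3 E-proteins stood apart in pair 1. It differed by -0.10 between the Rnf146 and the eGFP library of pair 1 and by 0.01, -0.01 and 0.00 in the other pairs, so that the gap to the nearest pair was 0.839 of the whole range, above Dixon's critical value for 4 values. In pair 1, *Tcf3* and *Tcf4* were both lower, by -0.13 and -0.23, and *Tcf12* was higher by 0.06. Each of the 3 genes alone stayed under the critical value, at 0.625, 0.388 and 0.477. Among 10 such sets of 4 pair differences examined (the 7 factors, *Rnf146* and both family means), this was the only one above it. Chance gives about 1 in 20 for a single set, and 10 were examined. The family means are made of the same factors, so the sets are not independent.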

How the results depend on the processing

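Without the replicate block, which counts the centred values as 8 independent libraries, 2 of the 7 factors were called (*Tcf4* and *Tcf12*), 3226 genes in all and 18 of the 65 partner genes. Under each other alternative tried, 0 of the 7 factors were called. The number of genes called was 355 with library weights and 80 at an adjusted p of 0.05, where 0 of the partner genes were called. With a pair left out it ran from 14 (without pair 4) through 42 (without pair 2) to 421 (without pair 1), and that of partner genes from 0 to 7. Of the partner genes, *Neurod2* and *Id4* lost their calls at 0.05 and without pair 2 or pair 4, and *Id4* also without pair 3. The mean of the HMG-box factors was 0.132 in back-transformed counts, and between 0.023 and 0.060 with a pair left out. That of the E-proteins ran from -0.037 to -0.002 with a pair left out, the latter without pair 1. The sign of *Tcf3* turned to 0.01 with library weights, without pair 1 and without pair 3, within a range of -0.09 to 0.01 with a pair left out. That of *Axin2* turned to 0.03 without pair 4, within a range of -0.04 to 0.03. The cause was not tested. *Tcf4* stayed between -0.17 and -0.11, with adjusted p-values of 0.0166 to 0.582. The HMG-box factors lie below the limit of the upper 75% of genes, so that this setting gave them no value. The alternatives for the partner genes were added after the data had been seen. The low level of the HMG-box factors limits what can be read for them: a doubling of the count moves their values by 0.295 to 0.335, against 0.946 for *Tcf4*.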

Other observations

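In the 250 bases before the annotated start, 4 of 17 target genes of TCF/LEF factors held a TCF/LEF core, as did 1 of the 4 HMG-box factors, 0 of the 14 coactivators and 2 of the 18 corepressors. The share over all 13197 promoters was 11.6%, and the core had been widened after a first search. An E-box of the kind searched was held by 3 of the 7 inhibitors of E-proteins, 1 of the 9 class II partners and 1 of the 3 E-proteins. It was also held by 5 of the 17 targets, 2 of the 14 coactivators, 1 of the 18 corepressors and 0 of the 4 HMG-box factors. The share over all promoters was 26.1%. These are counts of letters in a window whose position depends on the annotated start.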
